A study of Danio rerio with 6 samples.

Results

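The genes described here encode the machinery with which a cell digests its own material, in lysosomes and by autophagy. They were taken from the array's values by gene symbol: every gene whose probe set carries a single symbol beginning with atp6v, atg and a digit, gabarap, map1lc3, lamp1, lamp2, ulk, or cts and a letter, or named sqstm1, becn1, hexa, hexb, gba, gaa, npc2, tfeb or psap. This gave 42 of 8793 genes, in 46 probe sets. They comprise 13 cathepsins, 12 subunits of the proton pump, 13 genes of the autophagy machinery and 4 other lysosomal genes. Of the 9 genes asked for by full name, sqstm1 and psap had a probe set of 1 symbol; the other 7, becn1, hexa, hexb, gba, gaa, npc2 and tfeb, were not analysed here.

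Lysosomes are acidic compartments filled with hydrolases. The proton pump, or V-ATPase, acidifies them, and the cathepsins are their main proteases. Autophagy delivers cytoplasm to them: the Ulk1 kinase complex starts a membrane, a conjugation system attaches the ubiquitin-like LC3 and Gabarap proteins to it, and receptors such as p62, encoded by sqstm1, bring in ubiquitinated cargo. In mammalian skeletal muscle both systems clear damaged sarcomere proteins and mitochondria, wasting muscle raises the transcripts of cathepsin L and of LC3, and the kinase domain of titin binds the autophagy receptor Nbr1, which joins it to p62 and to ubiquitin ligases of the M-band.

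Runzel (ruz) is a zebrafish mutant line with a muscular dystrophy, which the series title ties to a mutation of titin, the giant protein that spans the sarcomere. Trunk and tail, mostly skeletal muscle with the head, heart and gut dissected away, was pooled from runzel larvae and from wildtype (WT) siblings at 3 to 3.5 days after fertilization, when the phenotype first shows, and 3 runzel and 3 wildtype arrays were made. The allele, and whether the siblings included heterozygous carriers, are not given in the sources used here. The series text pairs mutants with siblings of 1 clutch, for 3 clutches; no label says that an array's number marks a clutch, so arrays with 1 number were treated as a pair because their values deviated together.

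Median signal lay between 598.8 and 668.1 on the 6 arrays. All 16 skeletal muscle markers with a probe set passed the filter on dim signal. In the paired fit 1 of them, acta1a, a muscle actin gene, fell, against 0.587% of all tested genes. By mean difference 14 of the 16 were lower in runzel, against 49.5% of all tested genes, with a median log2 difference of -0.0788. In 3 of 3 pairs 8 were lower, against 17.7% of all tested genes. The 3 heart markers with a probe set, myl7, cmlc1 and tnnt2a, were dim. The ratio of 3′ to 5′ signal of the actin control, a reading of RNA integrity, was 2.64, 2.03 and 2.78 on the runzel arrays, against 1.43, 1.37 and 1.74 on the wildtype arrays (exact permutation p = 0.1, the smallest that 3 against 3 arrays allow). The part of RNA integrity in the differences below was not tested.

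No lysosome or autophagy gene passed the test between runzel and wildtype siblings. Of the 42 genes 39 were bright enough to be tested, and 0 passed in limma without pairs, where 0.00% of all 6136 tested genes did. With same-numbered arrays as pairs, 0 members fell, against 0.587% of all tested genes, and 0 rose, against 0.717%. At an unadjusted p under 0.05, 1 member passed without pairs, ctsla, against 4.97% of all tested genes in either direction. With pairs 4 passed at that level, ctsla, psap, map1lc3b and atp6v1g1, all lower in runzel, against 13.1% of all tested genes in either direction. Genes with a difference below 0 numbered 25 of the 39 members, against 49.5% of all tested genes. All runzel arrays lay below all wildtype arrays for 3 members and above them for 1. Over all tested genes the groups did not overlap, in either direction, for 10.7%. The 95% interval of the difference without pairs lay within 1 log2 unit of 0 on either side for 38 of 39 members. That is within a doubling or a halving, and it held for 5710 of all 6136 tested genes. The exception among the members was ulk1b. Differences are runzel minus wildtype on the scale of log2(signal + 50), with the SD over 3 pairs unless stated otherwise.

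**Figure D1:**
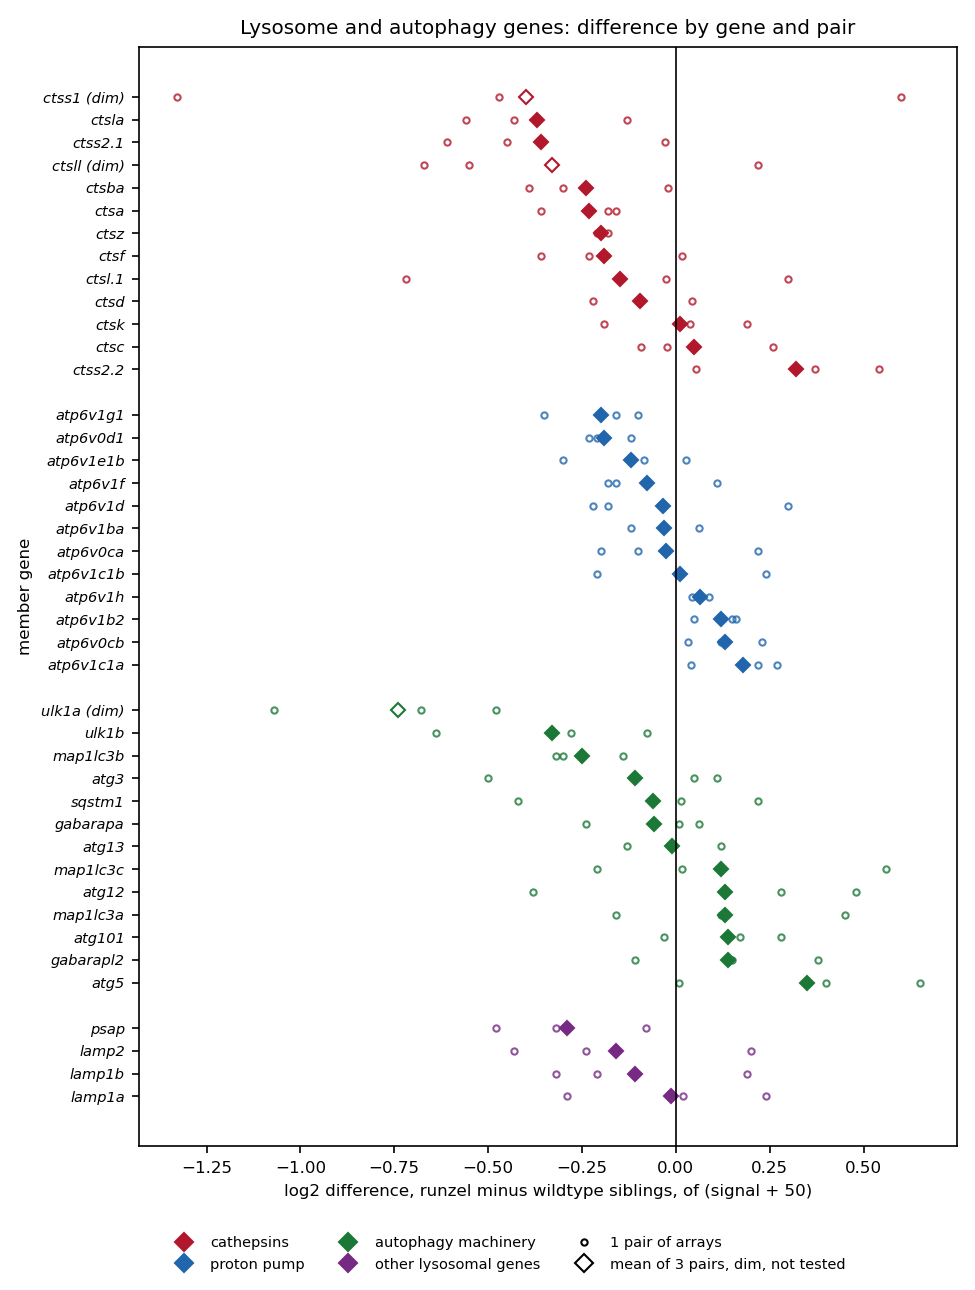
Log2 difference of runzel minus wildtype siblings (x axis, log2 of signal plus 50) for each of the 42 genes (y axis). Circles are the 3 pairs of same-numbered arrays and diamonds their mean, open where the gene was too dim to be tested. The cathepsins lie mostly left of 0, with ctsla at -0.37 as the lowest tested cathepsin and ctss2.2 at 0.32 as the highest. A second, dim probe set of ctss2.2, at -0.41, is not drawn. The proton pump lies between -0.20 and 0.18.

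Most cathepsins had lower signal in runzel, and 0 of them passed. Of 11 tested cathepsin genes 8 lay below 0 and 3 above, with a median of -0.191, against 0.00268 over all tested genes. The second, dim probe sets of ctss2.2 and ctsl.1 lay on the other side of 0, and the counts were 9 below and 2 above with that of ctss2.2 and 7 below and 4 above with that of ctsl.1. The class median was -0.181, -0.195 and -0.02 in the 3 pairs. It was -0.0355 without wildtype array 1, and it kept its sign under quantile normalization (-0.194) and median centring (-0.245). Under median centring ctsc and ctsk, both near 0, turned negative. The groups did not overlap for 2 cathepsins, ctsla and ctss2.1, against 10.7% of all tested genes in either direction, and 5 cathepsins were lower in 3 of 3 pairs, against 17.7% of all tested genes.

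Among the cathepsin L-type cysteine proteases, ctsla, 1 of the zebrafish genes related to mammalian cathepsin L, had the smallest p of all members. Its signal was 21817, 22499 and 18013 on the runzel arrays, against 29346, 24706 and 26633 on the wildtype arrays. Every runzel array lay below every wildtype array. Mean signal was 20776.3 ± 2417.2 in runzel, against 26894.7 ± 2331.1 in wildtype siblings (SD, n = 3 each), a log2 difference of -0.37 ± 0.219, or 0.771-fold. It did not pass in limma without pairs (adjusted p = 0.849, unadjusted p = 0.0104, 95% interval -0.64 to -0.11) or with them (adjusted p = 0.0971, interval -0.58 to -0.17), and the exact permutation p was 0.1, the smallest possible. The related ctsl.1 had 462, 643 and 720.4 on the runzel arrays, against 794, 655 and 574 on the wildtype arrays. Its pairs ran in both directions, at -0.72, -0.026 and 0.30, and a second, dim probe set of the gene had a difference of 0.16 ± 0.322 against -0.15 ± 0.523 at the tested one. The gene ctsll was too dim to be tested, with 96.4, 179 and 79.3 on the runzel arrays, against 183, 284 and 60.9 on the wildtype arrays.

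Cathepsin S works chiefly in antigen-presenting cells in mammals, and zebrafish carry several genes for it. The order of genes on the RefSeq assembly GRCz12tu places ctsk, ctss2.1 and ctss2.2 side by side with 0 other coding genes between neighbours. For ctss2.1 the signal was 644, 786 and 732 on the runzel arrays, against 1011, 803 and 1015 on the wildtype arrays. The groups did not overlap, runzel being lower, with a difference of -0.36 ± 0.301 (adjusted p = 0.977 without pairs and 0.416 with pairs), although in pair 2 the difference was only -0.029. For ctss2.2 the tested probe set read 729.5, 725 and 509 on the runzel arrays, against 700.4, 484 and 383 on the wildtype arrays. Here runzel was higher in 3 of 3 pairs, with a difference of 0.32 ± 0.245, with overlapping groups (adjusted p = 0.977 and 0.543). A dim second probe set of ctss2.2 lay the other way, at -0.41 ± 0.179, so no direction is given for this gene. The third cathepsin S gene, ctss1, was dim and untested, with 87.3, 295 and 151 on the runzel arrays, against 295, 178 and 229 on the wildtype arrays, and its pairs had differences of -1.33, 0.60 and -0.47.

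Of the more widely expressed lysosomal proteases, ctsba, a cathepsin B gene, read 5275, 5348 and 5091 on the runzel arrays, against 6495, 7023 and 5162 on the wildtype arrays. Runzel was lower in 3 of 3 pairs, with a difference of -0.24 ± 0.193, with pair 3 nearly equal, and the groups overlapped (adjusted p = 0.977 without pairs and 0.42 with pairs). The gene ctsa, for a serine carboxypeptidase that also protects lysosomal glycosidases, read 3989, 3296 and 3559.7 on the runzel arrays, against 4523, 4244 and 3987 on the wildtype arrays. Wildtype array 3 lay just below the highest runzel array, so the groups overlapped, and the difference was -0.23 ± 0.11 (adjusted p = 0.977 and 0.427). The gene ctsf, for cathepsin F, read 9344, 8779 and 10452 on the runzel arrays, against 10959.5, 11289.9 and 10337 on the wildtype arrays, with pairs at -0.23, -0.36 and 0.016. The carboxypeptidase gene ctsz had the smallest SD over pairs of the tested cathepsins, with a difference of -0.20 ± 0.0161 and pairs at -0.18, -0.20 and -0.21, from signals of 3898, 2884 and 2556 on the runzel arrays, against 4426, 3321 and 2971 on the wildtype arrays. Leaving out single arrays moved the difference between -0.37 and -0.035, and it did not pass (adjusted p = 0.981 and 0.516). Its arrays were spread more by replicate number than by genotype.

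Among the cathepsins that spread by number was largest for ctsk and ctsd. The gene ctsk, whose mammalian product degrades bone collagen in osteoclasts, read 4663, 2505 and 2499 on the runzel arrays, against 4539.9, 2874 and 2188 on the wildtype arrays. Both arrays numbered 1 stood above the other 4 while the genotypes did not differ beyond their spread, with a difference of 0.01 ± 0.193 and a 95% interval of -0.68 to 0.70. The gene ctsd, for the aspartic protease cathepsin D, read 13256, 8353 and 7753 on the runzel arrays, against 12864, 9763 and 8338 on the wildtype arrays. It too was highest on both arrays numbered 1, with a genotype difference of -0.095 ± 0.134. The gene ctsc, whose product activates the granule proteases of leukocytes in mammals, read 1153, 832 and 916 on the runzel arrays, against 1173, 891 and 755 on the wildtype arrays, with pairs at -0.024, -0.093 and 0.26.

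**Figure D2:**
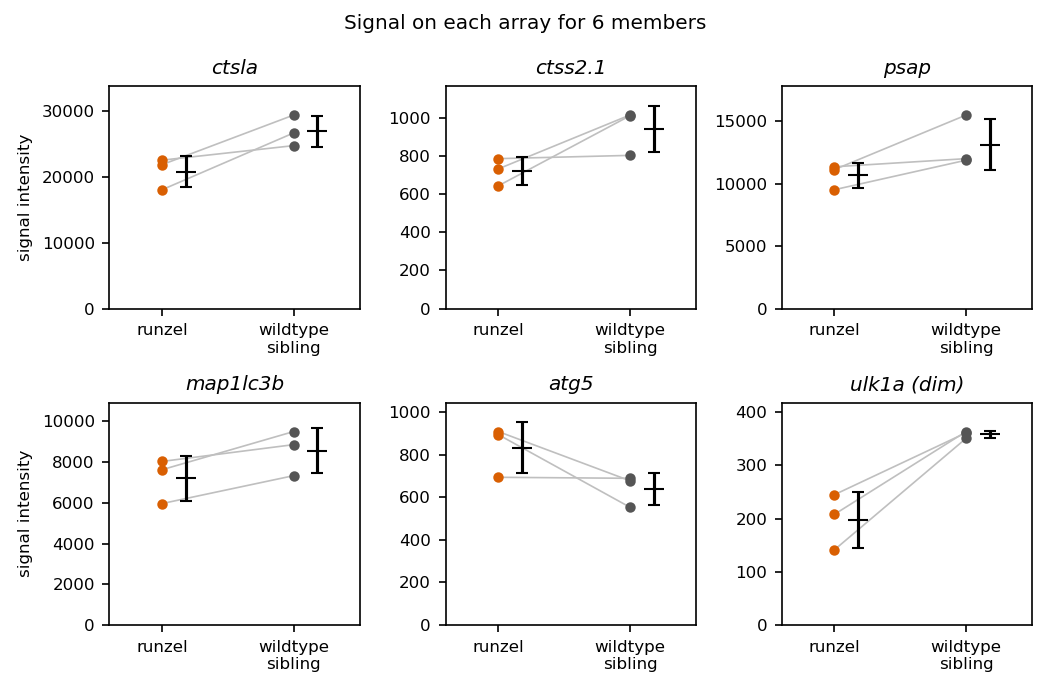
Signal intensity (y axis, linear, from 0) on each array for 6 members, runzel left and wildtype siblings right. Points are arrays, grey lines join arrays of the same number, and black bars are the mean and SD of 3 arrays. For ctsla, ctss2.1, psap and ulk1a every runzel array lies below every wildtype array, for atg5 every runzel array lies above, and for map1lc3b the groups overlap.

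Some genes listed as markers of skin and of gut, liver and pancreas fell in the paired fit, where 0.587% of all tested genes fell. Without pairs 0 of either list passed, with 5 of each at an unadjusted p under 0.05, against 4.97% of all tested genes. Of 18 gut, liver and pancreas markers with a probe set 10 were tested, 5 fell in the paired fit and 0 rose. The 5 were apoa1a, apoc2, rbp4, rbp2a and tfa, while fabp1a, fabp10a, ela2, ela2l, ela3l, cpa1, cel.1 and ins were dim. Summed over the 10, signal was 208595 to 241336 in runzel and 268599 to 299492 in wildtype siblings. Gut had been dissected away, and which tissue these transcripts came from was not tested. Of 19 tested epidermis markers 6 fell and 0 rose, with a summed signal of 398746 to 472642 in runzel and 470748 to 532147 in wildtype siblings. Of 8 tested macrophage and leukocyte markers 0 passed in either limma fit, 5 lay above 0 and 3 below, and the median was 0.225. At an unadjusted p under 0.05 there were 0 without pairs and 3 with pairs, against 4.97% and 13.1% of all tested genes. Those with pairs were lyz, mpx and laptm5, all higher in runzel by mean difference, though laptm5 was at -0.039 in pair 3. The 3 markers below 0 were coro1a, cyba and apoeb, at -0.30 ± 0.146, -0.18 ± 0.566 and -0.024 ± 0.142. For coro1a the pairs were at -0.47, -0.21 and -0.23. The median of the macrophage and leukocyte list was 0.30, 0.251 and -0.0771 in the 3 pairs. This list had a summed signal of 34183 to 44512 in runzel and 34759.5 to 41554 in wildtype siblings. Each summed signal weighs its brightest probe sets most, here apoeb and lyz, at means of 21496 and 13481 in runzel. The markers marco, csf1ra, ptprc, cd74a, cd74b, grna and ncf1 were dim, and a further 6 listed markers had no probe set of 1 symbol. In whole tissue, fewer cells of a type and less RNA per cell cannot be told apart. The part of these tissues in the cathepsin values was not tested.

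The proton pump genes stayed close to 0. All 12 were tested, 7 lay below 0 and 5 above, with a median of -0.0282. The median was -0.00707 under quantile normalization, -0.0822 under median centring and 0.0377 without pair 2, so no direction is given for the class. The 12 intervals of the difference without pairs together spanned -0.53 to 0.52. For 0 of the 12 subunits did the groups separate, against 10.7% of all tested genes. Of the subunits 2 were lower in 3 of 3 pairs and 4 were higher, against 17.7% of all tested genes in each direction.

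In the membrane-bound V0 part, which carries the protons across, atp6v0ca and atp6v0cb encode the c subunit of the rotating ring. The brighter probe set of atp6v0ca read 16377, 19374 and 21689.9 on the runzel arrays, against 18825, 16596 and 23218 on the wildtype arrays. The groups overlapped widely, with a difference of -0.025 ± 0.221, and the second probe set gave -0.10 ± 0.176. The gene atp6v0cb read 6567, 8096 and 7037 on the runzel arrays, against 5575, 7422 and 6879.7 on the wildtype arrays, a difference of 0.13 ± 0.101 (adjusted p = 0.994 without pairs and 0.64 with pairs). The d subunit, which couples the ring to the central stalk, is encoded by atp6v0d1, and its signal was 4603, 4139 and 4059 on the runzel arrays, against 5315, 4506 and 4767 on the wildtype arrays. Runzel was lower in 3 of 3 pairs, with a difference of -0.19 ± 0.0568, with 1 runzel array inside the wildtype range (adjusted p = 0.977 and 0.522).

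In the cytosolic V1 part, which splits ATP, the B subunit genes were atp6v1ba, at -0.031 ± 0.0939, and atp6v1b2, at 0.12 ± 0.0643. The signal of atp6v1b2 was 1074, 1419 and 1247 on the runzel arrays, against 961, 1261 and 1205 on the wildtype arrays, higher in runzel in 3 of 3 pairs by amounts smaller than the spread within a group. The C subunit, which helps the 2 parts to come together and apart, has the genes atp6v1c1a and atp6v1c1b. For atp6v1c1a the signal was 3399.6, 3595 and 2978 on the runzel arrays, against 2807, 3089 and 2894 on the wildtype arrays, the highest difference of the class at 0.18 ± 0.121 (adjusted p = 0.977 and 0.596), while atp6v1c1b stood at 0.011 ± 0.23. The G subunit gene of the outer stalk, atp6v1g1, had the lowest difference of the class, from signals of 13709, 9923 and 12121 on the runzel arrays, against 15281, 12668 and 13015 on the wildtype arrays. It was lower in 3 of 3 pairs, with a difference of -0.20 ± 0.131, and did not pass (adjusted p = 0.977 and 0.39). The outer stalk gene atp6v1e1b read 7139, 5971 and 5618 on the runzel arrays, against 7570.2, 5863 and 6925 on the wildtype arrays, with a difference of -0.12 ± 0.166 and overlapping groups. The rotor genes stood at -0.033 ± 0.291 for atp6v1d and -0.077 ± 0.163 for atp6v1f. The regulatory H subunit gene atp6v1h stood at 0.064 ± 0.0229.

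The proton pump is also abundant in skin ionocytes of fish larvae. Of 8 tested genes listed as ionocyte markers 7 lay below 0, against 49.5% of all tested genes, and 0 passed in either limma fit. At an unadjusted p under 0.05 there were 1 without pairs and 6 with pairs, against 4.97% and 13.1% of all tested genes. The median was -0.25, and summed signal was 33701 to 40627 in runzel and 41014 to 46865 in wildtype siblings. The marker atp1a1a.5 was dim. For 10 listed markers, among them foxi3a, foxi3b, ca15a and slc9a3.2, there was no probe set of 1 symbol. The marker at an unadjusted p under 0.05 without pairs, atp2b1a, a calcium pump gene, was the 1 above 0, at 0.45 ± 0.151, and of the 6 with pairs 5 were lower. The part of ionocytes in the proton pump values was not tested, nor was whether each listed gene marks these cells alone.

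The autophagy genes lay on both sides of 0, and 0 of them passed. Of 12 tested genes 6 lay below 0 and 6 above, with a median of 0.0557, which was 0.0017 under median centring and -0.0338 with a stricter filter on dim signal. With the second probe set of atg5, which lay on the other side of 0, the counts were 7 below and 5 above, and averaging the probe sets of a gene gave a median of 0.0431. Of these genes 2 were lower and 1 was higher in 3 of 3 pairs, against 17.7% of all tested genes in each direction.

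At the start of the pathway, ulk1a and ulk1b encode kinases related to mammalian Ulk1. The gene ulk1a was too dim to be tested, with 245, 208 and 141 on the runzel arrays, against 361, 363 and 351 on the wildtype arrays. Every runzel array lay below every wildtype array, and the wildtype arrays lay close together. The difference was -0.74 ± 0.298, the farthest from 0 of any member, with an exact permutation p of 0.1, the smallest possible. With dim probe sets kept in the fit it did not pass (limma adjusted p = 0.924 without pairs and 0.388 with pairs). The gene ulk1b read 489, 578 and 1309 on the runzel arrays, against 788, 715 and 1382 on the wildtype arrays. It was lower in runzel in 3 of 3 pairs, with a difference of -0.33 ± 0.284, but both arrays numbered 3 stood above the other 4, and its 95% interval without pairs ran -1.15 to 0.48 (adjusted p = 0.989 without pairs and 0.458 with pairs). Single arrays moved it, to -0.74 without runzel array 3, -0.073 without runzel array 1 and -0.053 without wildtype array 3. Partners of the kinase stood near 0, with atg13 at -0.0098 ± 0.123 and atg101 at 0.14 ± 0.156. The signal of atg101 was 874, 740.4 and 564 on the runzel arrays, against 771, 758 and 457 on the wildtype arrays, with overlapping groups.

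The conjugation system joins Atg12 to Atg5 and, through the E2-like enzyme Atg3, attaches LC3 to lipid. The brighter probe set of atg5 read 695, 910.1 and 896 on the runzel arrays, against 690.1, 678 and 554 on the wildtype arrays. It was the single tested member whose runzel arrays all lay above the wildtype arrays, although the log2 difference in pair 1 was only 0.0091. Over all tested genes the groups did not overlap, in either direction, for 10.7%. The mean difference at this probe set was 0.35 ± 0.321 (adjusted p = 0.977 without pairs and 0.46 with pairs). The second tested probe set of atg5 read 672, 608 and 525 on the runzel arrays, against 691, 681 and 652 on the wildtype arrays, a difference of -0.16 ± 0.126. The probe sets of atg5 thus lay on opposite sides of 0, and no direction is given for the gene. The gene atg12 read 1207, 1396 and 485 on the runzel arrays, against 982, 987 and 646 on the wildtype arrays, lowest on both arrays numbered 3, with pairs at 0.28, 0.48 and -0.38. The gene atg3 read 1130.0, 1188 and 883 on the runzel arrays, against 1041, 1147 and 1269 on the wildtype arrays, with a difference of -0.11 ± 0.337.

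Of the ubiquitin-like proteins, map1lc3b, an LC3 gene, read 5967, 8037 and 7629.8 on the runzel arrays, against 7339, 8863 and 9507 on the wildtype arrays. It was lower in runzel in 3 of 3 pairs, with a difference of -0.25 ± 0.0961, while the groups overlapped, and it did not pass (adjusted p = 0.977 without pairs and 0.317 with pairs). The difference was -0.12 without runzel array 1 and -0.36 without wildtype array 1. Its relatives map1lc3a, map1lc3c, gabarapa and gabarapl2 stood at 0.13 ± 0.305, 0.12 ± 0.394, -0.058 ± 0.162 and 0.14 ± 0.247. For gabarapl2 the signal was 5488, 7323 and 5826 on the runzel arrays, against 4925, 5611 and 6302 on the wildtype arrays. The cargo receptor gene sqstm1 read 2229, 2839 and 2835 on the runzel arrays, against 2990.4, 2811 and 2433 on the wildtype arrays. Its pairs ran from below to above 0, at -0.42, 0.014 and 0.22, with a 95% interval without pairs of -0.43 to 0.30.

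Of the 4 other lysosomal genes all lay below 0, with a median of -0.136, though lamp1a, at -0.012, lay above 0 under quantile normalization. The gene psap encodes prosaposin, the precursor of the saposins that assist the breakdown of sphingolipids. Its signal was 11360.1, 11138 and 9524 on the runzel arrays, against 12012, 15508 and 11889 on the wildtype arrays. The groups did not overlap, against 10.7% of all tested genes in either direction. Runzel was lower in 3 of 3 pairs, against 17.7% of all tested genes. The difference was -0.29 ± 0.199, and psap did not pass (adjusted p = 0.977 without pairs and 0.255 with pairs). The genes of the lysosomal membrane proteins, lamp2, lamp1b and lamp1a, stood at -0.16 ± 0.324, -0.11 ± 0.265 and -0.012 ± 0.263. The signal of lamp2 was 5500.3, 4313 and 6344 on the runzel arrays, against 6518, 5833 and 5514 on the wildtype arrays. For lamp1b it was 1359, 2248 and 1468 on the runzel arrays, against 1708, 1971 and 1703 on the wildtype arrays. For lamp1a it was 4395, 4739 and 3109 on the runzel arrays, against 4341, 4018 and 3808 on the wildtype arrays. In each of the 3 genes the groups overlapped, and at least 1 pair lay on each side of 0.

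Most members, like most tested genes, differed more between replicate numbers than between genotypes. In the fit with pairs the effect of the number passed for 4 of 39 members, ctsk (adjusted p = 0.00607), ctsd (adjusted p = 0.00991), ulk1b (adjusted p = 0.015) and atg12 (adjusted p = 0.0313), against 7.89% of all tested genes. The gene ctsz fell short (adjusted p = 0.0504). The range of the 3 number means was 0.96 for ctsk, 0.70 for ctsd, 1.01 for atg12 and 1.05 for ulk1b on the log2 scale, against genotype differences of 0.01 to 0.33 in size. Over all members this range exceeded the genotype difference in 32 of 39 genes, or 82.1%, against 80.7% of all tested genes. The counts of 4 and 32 members thus lie near the shares over all tested genes, and neither is a trait of these members. A range over 3 means tends to be wider than a difference of 2, and the numbers were taken as pairs because these same arrays correlate by number. Of the cathepsins 7 of 11 were highest in number 1 and 7 of 11 lowest in number 3. Of the proton pump genes 8 of 12 were highest in number 1 and 6 of 12 lowest in number 3. For the autophagy machinery these counts were 4 of 12 and 6 of 12, and for the other lysosomal genes 2 of 4 and 2 of 4. Over all tested genes these shares were 37.5% and 38.3%.

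**Figure D3:**
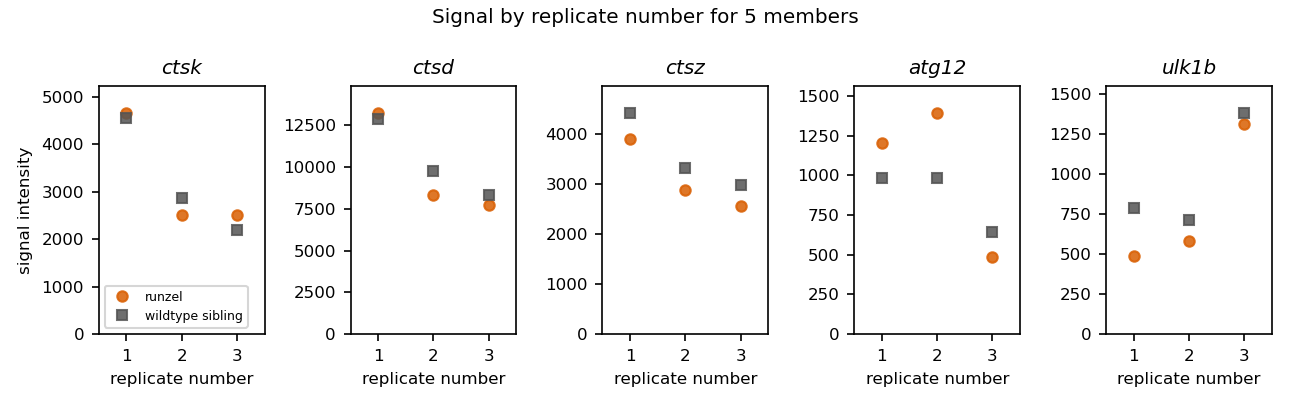
Signal intensity (y axis, linear, from 0) by replicate number (x axis) for ctsk, ctsd, ctsz, atg12 and ulk1b, with circles for runzel and squares for wildtype siblings. The first 3 genes are highest on both arrays numbered 1, atg12 is lowest and ulk1b highest on both arrays numbered 3.

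**Figure D4:**
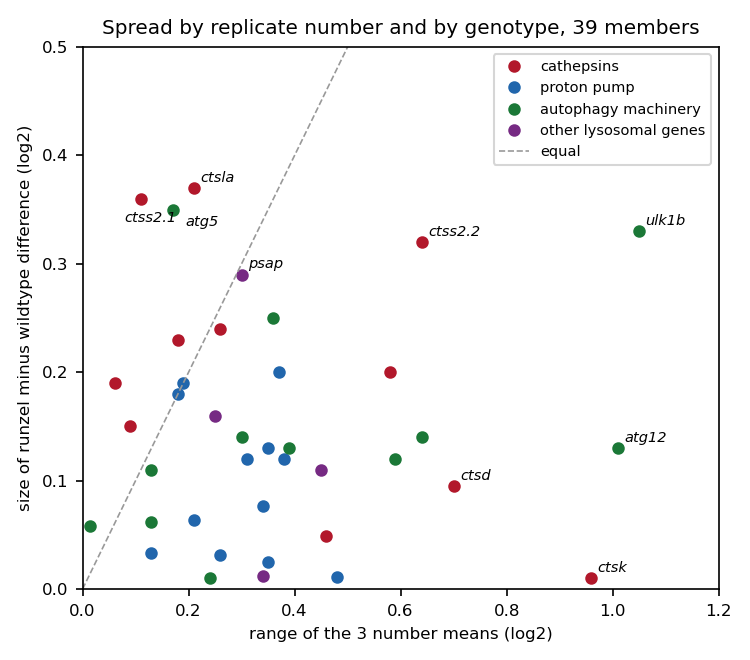
Size of the genotype difference (y axis, log2) against the range of the 3 number means (x axis, log2) for the 39 tested members, coloured by class, with a dashed line where both are equal. The genes ctsla, ctss2.1 and atg5 are among the 7 above the line, and ctsk, ctsd, atg12 and ulk1b lie far to its right.

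Genes of the same and of related pathways outside the symbol rule were counted from other lists. Of 31 tested genes for other lysosomal enzymes and membrane proteins 22 lay below 0, against 49.5% of all tested genes, with a median of -0.101. In the paired fit 1 of them fell, pla2g15, which encodes a lysosomal phospholipase, against 0.587% of all tested genes. In the same fit 0 rose, against 0.717%, and without pairs 0 passed, against 0.00%. At an unadjusted p under 0.05 there were 2 without pairs and 7 with pairs, against 4.97% and 13.1% of all tested genes. The signal of pla2g15 was 5095, 4064 and 5270.2 on the runzel arrays, against 8275, 6225 and 6658 on the wildtype arrays. The groups did not overlap, and the difference was -0.55 ± 0.188 (paired adjusted p = 0.043). The paired fit kept the call without pair 3 (limma adjusted p = 0.0152) and without the filter on dim signal (adjusted p = 0.0452). The call was lost without pairs (limma adjusted p = 0.818), with the number as a random block (adjusted p = 0.116), without the intensity trend in the paired fit (adjusted p = 0.273), without pair 1 (adjusted p = 0.371) and without pair 2 (adjusted p = 0.178).

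Of 27 tested genes in the list of other autophagy genes 0 passed in either fit, and the median was 0.0171. At an unadjusted p under 0.05 there were 4 with pairs and 0 without, against 13.1% and 4.97% of all tested genes. Of the 4, wipi2, bnip3 and trim63b were higher in runzel and nbr1b was lower. The list also holds ubiquitin ligase genes, and trim63b is 1 of them. The mitophagy receptor gene bnip3 had the largest difference, 0.58 ± 0.696, from signals of 519.5, 1046 and 656 on the runzel arrays, against 517, 379 and 494 on the wildtype arrays. The gene nbr1b, related to the receptor that binds the titin kinase in mammals, read 595, 714 and 953 on the runzel arrays, against 979, 877 and 1077 on the wildtype arrays, a difference of -0.37 ± 0.266 (paired adjusted p = 0.383). Its relative nbr1a stood at -0.18 ± 0.125 (paired adjusted p = 0.627). Of 44 tested genes of lysosome regulation and trafficking 0 passed in either fit, with a median of -0.0182. At an unadjusted p under 0.05 there were also 0 in either fit, against the same shares of all tested genes. Among these, foxo3b, a transcription factor gene whose mammalian relative drives autophagy genes in wasting muscle, stood at -0.36 ± 0.535 and the mTORC1 activator gene rheb at 0.33 ± 0.432. Of 2 tested cysteine protease inhibitors 0 passed in either fit. At an unadjusted p under 0.05 there was 1 in each fit, cst14b.1, a cystatin gene, against the same shares of all tested genes. The difference of cst14b.1 was -0.41 ± 0.214 (adjusted p = 0.977 and 0.239), and that of cst3 was -0.006 ± 0.262.

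**Figure D5:**
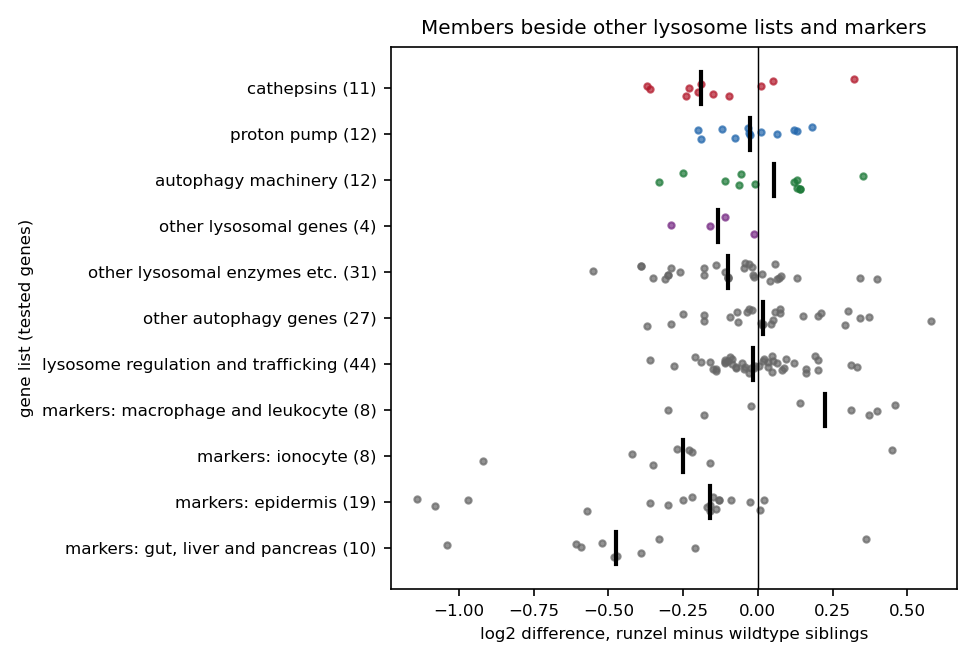
Log2 difference of runzel minus wildtype siblings (x axis) of each tested gene in the 4 classes of members (coloured), in 3 lists of other lysosome and autophagy genes and in 4 lists of tissue markers (grey), with the number of genes in parentheses and a black bar at the median. The cathepsin median is -0.191, the proton pump median -0.0282, and the median of the gut, liver and pancreas markers -0.476.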

How the data were processed

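RNA of 6 pooled samples was hybridised to the Affymetrix Zebrafish Genome Array, 1 biotin label each. Per the labels, signals came from Affymetrix GeneChip Operating Software at its defaults. The deposited values are linear signal intensity, 1 per probe set; the algorithm is not named in the labels. The 2% trimmed mean was between 1500.4 and 1500.5 on every array, so the authors' scaling was kept.

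Of 15617 probe sets 115 controls were left out; 10795 had 1 symbol, 135 several and 4572 none. All 42 members matched RefSeq symbols. Probe sets under the 40th percentile of mean log2(signal + 50) were left out, which kept 9301, and the brightest tested probe set stood for its gene. This removed ctsll, ctss1 and ulk1a. Probes differ in brightness. Signals of different probe sets were compared only for the filter, to choose the brightest, and to name those weighing most in a sum. Summed signals were compared between groups over the same probe sets.

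Two-sided tests used limma 3.58.1 (R 4.3.3) with empirical Bayes and an intensity trend, adjusted by Benjamini-Hochberg over 9301 probe sets, at 0.05, without a block and with the replicate number as a block. Same-numbered arrays deviated together (correlations of 0.551, 0.389 and 0.526), which is where the pairing comes from. P-values measure the spread between these pooled samples, and 6 arrays limit the precision. Code was tested on simulated data. Members, lists and tests were chosen with earlier results of these data known; the test of the number's effect and fits with 2 changed choices were added after the values were seen. Shown in full were the 5 tested members of each class with the largest absolute difference, the brightest of each class and, chosen after their values were seen, the other members with signals given.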

Additional observations from a re-analysis of the deposited data

How the results depend on the processing

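The number of members passing stayed at 0 in all 20 other limma fits, with 1 to 7 at an unadjusted p under 0.05. The lowest adjusted p of any member was 0.0508, for ctsla in the fit with the replicate block without pair 2, and the adjusted p of ctsla ran up to 1 over the settings. The replicate block changed no call among the members. Leaving out single arrays moved the median difference of the cathepsins between -0.285 and -0.0355, of the proton pump between -0.103 and 0.0248, of the autophagy machinery between -0.0582 and 0.094, and of the other lysosomal genes between -0.227 and -0.106. Leaving out a pair in the fit with the replicate block gave -0.269 to -0.159 for the cathepsins, -0.0315 to 0.0377 for the proton pump (0.0282 without pair 1), -0.0697 to 0.0825 for the autophagy machinery and -0.173 to -0.0709 for the other lysosomal genes. The filter at the 60th percentile gave the autophagy machinery a median of -0.0338 from 8 genes in place of 12. Of 773 values of single members under other settings 741 moved by less than the SD over pairs. Many of the 741 could not move. With all arrays kept, a fixed or random block, no intensity trend or another filter leaves a gene's difference unchanged by design. The count of 741 is therefore no measure of stability. Among the values that moved beyond the SD over pairs, leaving out wildtype array 1 gave 0.012 for atp6v0cb, -0.12 for atp6v0d1 and 0.0074 for atp6v1b2. Low signal limits what can be said of ctsll, ctss1 and ulk1a.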

Other observations

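Of 104 tested genes in the 4 other lists of lysosome, autophagy, trafficking and cystatin genes, 7 passed the test of the replicate number, or 6.73%, against 7.89% of all tested genes, so their number is near the background and their values are given as a description. The gene cd68, for a lysosomal membrane protein of macrophages, read 3576, 2098 and 2206 on the runzel arrays, against 3617, 2919 and 2104 on the wildtype arrays, highest on both arrays numbered 1 (adjusted p of the number = 0.0443). The vesicle fusion gene vamp8 read 2566, 1007 and 1491 on the runzel arrays, against 3098, 1294 and 1408 on the wildtype arrays, again highest on both arrays numbered 1 (adjusted p = 0.00269). The cystatin gene cst3 read 1859, 1146 and 855 on the runzel arrays, against 1599.5, 1419 and 813 on the wildtype arrays, lowest on both arrays numbered 3 (adjusted p = 0.0184). The lysosomal receptor gene scarb2a read 3464, 3039.8 and 6252 on the runzel arrays, against 3995, 4427 and 6391 on the wildtype arrays (adjusted p = 0.0136) and the early endosome gene rab5aa 5147, 7323 and 7806 on the runzel arrays, against 6287, 8079 and 9007 on the wildtype arrays (adjusted p = 0.0325), both highest on the arrays numbered 3 within their genotype.

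The gene acp5a, for the acid phosphatase of osteoclasts and macrophages, read 887, 1381 and 496 on the runzel arrays, against 782, 1584 and 503 on the wildtype arrays. It was highest on both arrays numbered 2 (adjusted p = 0.00292). The gene aga, for a lysosomal amidase, read 8584, 5817 and 4048 on the runzel arrays, against 5437, 5155 and 3538 on the wildtype arrays (adjusted p = 0.0161), highest on array 1 within each genotype. The adjusted p-values of the number come from limma with the replicate block over all tested probe sets, and these genes were chosen after their values were seen.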
